A study of Macaca fascicularis with 6 samples.

Results

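The cytokine TWEAK (gene TNFSF12), its receptor FN14 (gene TNFRSF12A) and 8 genes of the pathway behind that receptor were examined in the left ventricle of cynomolgus monkeys. The 10 genes are the ligand TNFSF12, the receptor TNFRSF12A, the adaptors TRAF2 and TRAF3, the ubiquitin ligases BIRC2 and BIRC3, the transcription factor subunits NFKB1, NFKB2 and RELA, and the inhibitor NFKBIA. Probe sets, the groups of short array probes that together measure 1 transcript, were assigned by the gene name in the array's own design text, or by the annotation's gene symbol where the design text held none. This gave 20 probe sets for the 10 genes, among 52706 probe sets and 21494 named genes on the array. The study had picked TNFRSF12A and TNFSF12 on these same arrays, and the other 8 genes were chosen as their partners with results of the arrays known. All differences of these 10 genes between the groups are therefore given as a description, with no test.

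TWEAK belongs to the tumour necrosis factor superfamily, is made as a membrane protein and can be cut to a soluble cytokine. FN14 is a small receptor without a death domain that is scarce in most healthy adult tissue and is induced by injury, growth factors and mechanical load, as shown mainly in rodents and in cultured cells. It signals through TRAF adaptors. TRAF2, TRAF3 and the ligases encoded by BIRC2 and BIRC3 (cIAP1 and cIAP2) hold the kinase NIK (gene MAP3K14) at a low level until the receptor is engaged. The classical NF-κB route then releases dimers of RELA and p50 (from NFKB1) from the inhibitor IκBα (from NFKBIA), and the alternative route processes the product of NFKB2 to p52. In mice, lasting excess of TWEAK dilates the heart.

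The arrays compared 2 hearts with chronic atrioventricular block (AVB; animals #2 and #8, taken 8 months after the conduction node had been ablated through a catheter) with 4 hearts of non-operated, intact animals (#11, #12, #13 and #14), 1 array per animal. All were males of 4 to 6 years, anesthetized with thiopental sodium at autopsy, and each specimen was a transmural piece of the left ventricular free wall. Both AVB animals had also received repeated oral dl-sotalol, which blocks β-adrenoceptors and delays repolarization, and moxifloxacin, and were taken because they had developed torsade de pointes most often, so that the block, the drugs and the arrhythmia cannot be told apart. A transmural piece holds myocytes, fibroblasts, vessels, macrophages and blood, and a higher signal cannot tell more RNA per cell from more cells of a type.

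Signals are fluorescence intensities on a linear scale, and every array also gives each probe set a call (Present, Marginal or Absent) that says whether it was detected. The arrays had been deposited at unequal brightness, with 2% trimmed means of 54.1 and 72.9 in AVB hearts and 74.4 to 87.4 in intact hearts. All signals below were therefore scaled to 1 trimmed mean, except where deposited signals are named. In AVB hearts 36.0% and 39.7% of probe sets were Present, in intact hearts 37.2% to 39.2%. For the control gene GAPDH, the 3′ signal divided by the 5′ signal, which is high where RNA copies are short, was 5.05 and 3.05 in AVB hearts and 2.17 to 2.65 in intact hearts (exact permutation test on log2 ratios, 2-sided, p = 0.0667, which no split of these 6 arrays can go below). The same ratio of ACTB was 11.6 and 8.98 in AVB hearts and 7.85 to 10.9 in intact hearts, with overlap (p = 0.333, same exact permutation test). The part of these ratios in the results below was not tested. All 10 cardiomyocyte markers examined were Present on every array.

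Of the 20 probe sets, 14 (of 8 genes) were Present on at least 2 arrays and entered the fit across 22577 probe sets, and 9 of them were Present on all 6. The other 6 had no Present call on any array. They were the single probe set of TRAF2, all 3 of NFKB2, 1 of 2 for TRAF3 and 1 of 3 for BIRC3, and for TRAF2 and NFKB2 neither group's level could therefore be read.

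The receptor gene TNFRSF12A stood apart from the other genes of the axis that could be read. Its probe set (MmugDNA.13846.1.S1_at; rhesus build Mmul_051212, chromosome 20, 3169028 to 3169598, plus strand) read 1434 and 1988 in AVB animals #2 and #8, against 650.5, 626, 389 and 487 in intact animals #11, #12, #13 and #14. Both AVB hearts lay above every intact heart, and the dimmer of them was at 2.21 times the brightest intact heart. The means were 1711 ± 391 in AVB hearts (SD, n = 2) and 538 ± 123 in intact hearts (SD, n = 4). On the log2 scale the difference was 1.68 (SE 0.24), a fold of 3.20, with 2.72 for animal #2 alone and 3.77 for animal #8 alone. Of all probe sets in the fit, 123 (0.545%) had a larger log2 fold change in the same direction. The probe set was Present on all 6 arrays, so the intact hearts too gave a signal above background. Among the intact hearts the signal varied with a coefficient of variation of 22.8%, against a median of 20.4% over all probe sets in the fit. In the deposited signals, before scaling, the ratio of the group means was 2.54. A single probe set represents the gene, so no other probe set could check the value.

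The ligand gene TNFSF12 showed no such separation. Its probe set (MmuSTS.4667.1.S1_at; chromosome 16, 7283004 to 7283770, plus strand) read 119 and 139.7 in AVB animals #2 and #8, against 119, 124, 129 and 109 in intact animals #11 to #14. Animal #8 was the highest of the 6 hearts, while animal #2 lay inside the intact range. The log2 difference was 0.10 (SE 0.19), a fold of 1.07. In the deposited signals, before scaling, the ratio of means was 0.850, so this small difference ran the other way where brightness was not corrected. The ligand gene was also the steadier of the pair, with a coefficient of variation of 7.11% among intact hearts.

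**Figure D1:**
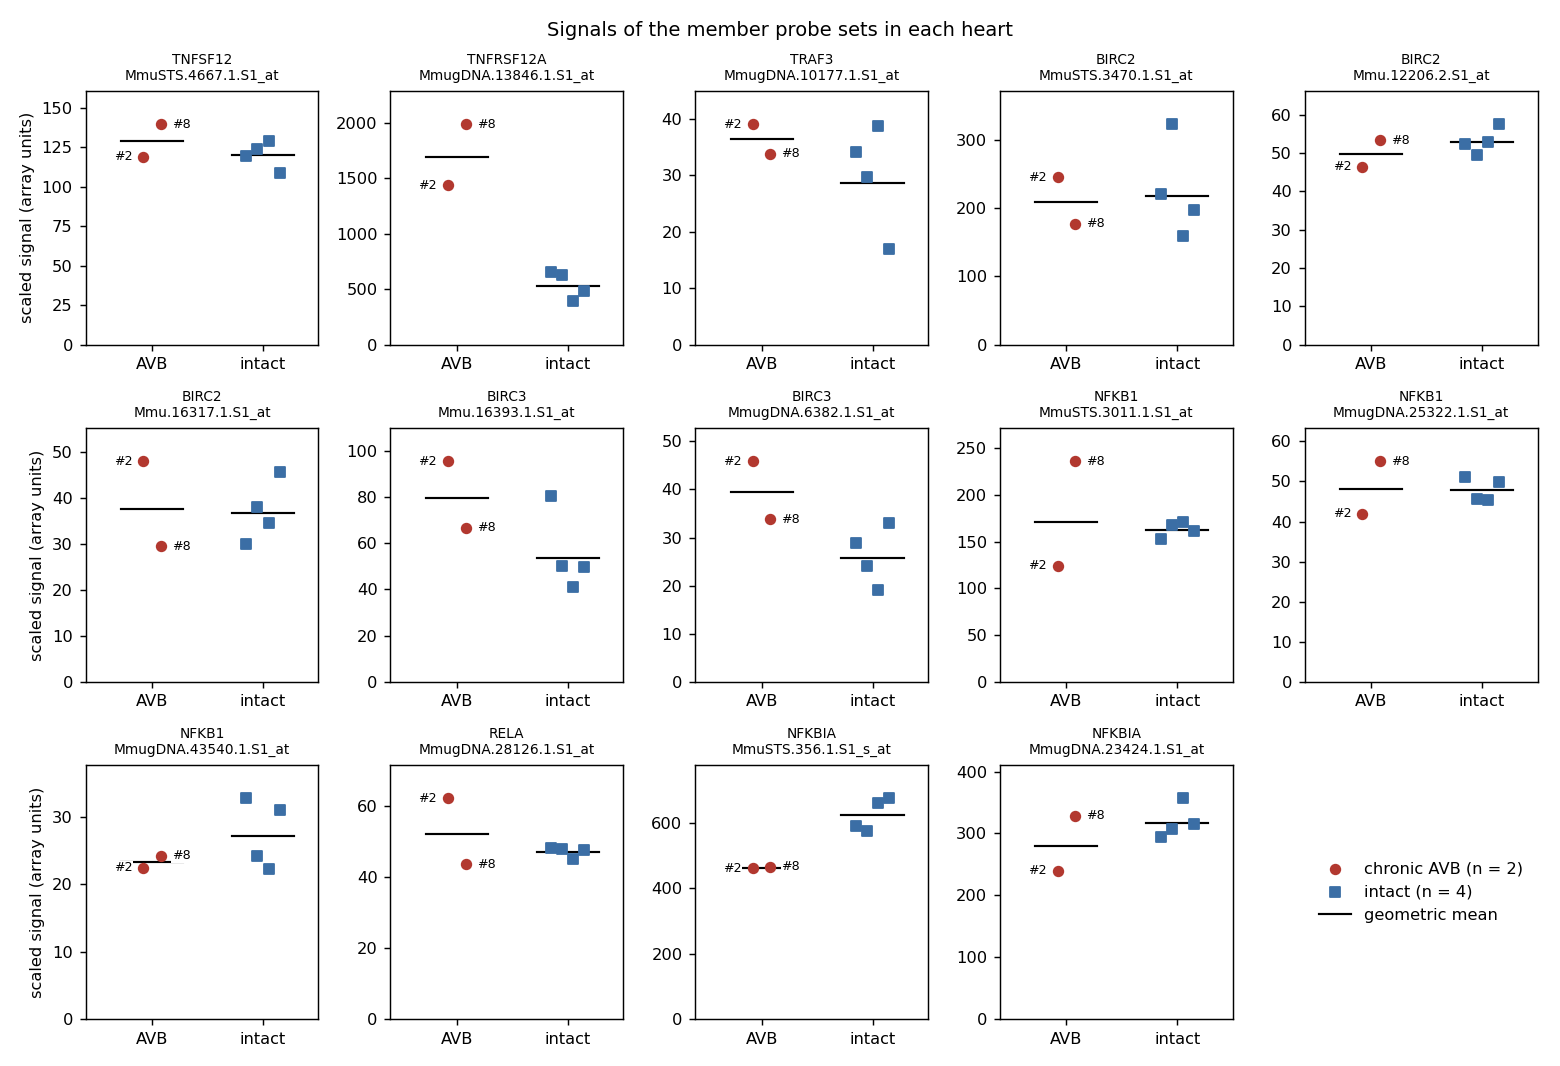
Scaled signal (array units, linear axes that start at 0) of the 14 probe sets that entered the fit, in the 2 chronic AVB hearts (red circles, labelled by animal) and the 4 intact hearts (blue squares). Black lines are geometric means. In TNFRSF12A both AVB hearts (1434 and 1988) stand clear of the intact hearts (389 to 650.5), in NFKBIA probe set MmuSTS.356.1.S1_s_at they stand below them, and in most other panels the groups overlap.

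TNFSF12 lies next to TNFSF13, the gene of the B-cell cytokine APRIL, and the 2 genes can be read through as 1 transcript, TNFSF12-TNFSF13. Beside the TNFSF12 probe set above, 3 probe sets are named for TNFSF13 and that joint transcript and were kept out of the count of 20. The only one Present on every array, MmugDNA.24514.1.S1_s_at, read 49.5 and 47.0 in AVB hearts, against 38.0, 31.0, 40.0 and 32.2 in intact hearts, a log2 difference of 0.46 (SE 0.25). Both AVB hearts were above the intact ones there, but the margin over the brightest intact heart was a factor of 1.17. The second, MmugDNA.24513.1.S1_s_at, ran the other way (fold 0.499, SE 0.48 on the log2 scale), with 10.2 and 32.2 in AVB hearts and 26.7 to 47.8 in intact hearts, and was Present on only 1 array of each group. The third was Absent throughout. These probe sets therefore gave no common direction for the neighbouring gene.

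The adaptors that bind the tail of FN14 were near the lower end of what the array could read. TRAF2, the adaptor that recruits the cIAP ligases, was Absent on every array, with 36.9 and 45.0 in AVB hearts and 11.3 to 45.6 in intact hearts. TRAF3, which links NIK to that complex, was Present on every array with probe set MmugDNA.10177.1.S1_at, at 39.1 and 33.8 in AVB hearts against 34.0, 29.8, 38.7 and 16.9 in intact hearts. The lowest value belonged to intact animal #14, and the log2 difference of 0.35 had an SE of 0.37. The groups overlapped, and without animal #14 the difference was 0.10.

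The cIAP ligases, neighbouring genes that keep NIK turned over, gave unlike values. For BIRC2, the gene of cIAP1, the 3 probe sets gave log2 differences of -0.06, -0.09 and 0.04, and in each of them the groups overlapped. The brightest of the 3, MmuSTS.3470.1.S1_at (chromosome 14, 100962989 to 100963229, plus strand), read 246 and 177 in AVB hearts, against 220.2, 324, 159 and 198 in intact hearts. Animal #2 and animal #8 lay on opposite sides of the intact mean in all 3 probe sets of BIRC2.

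BIRC3, the gene of cIAP2 and itself a known NF-κB target, was higher in both AVB hearts than the intact mean in both probe sets that could be read. The brighter of them (chromosome 14, 100915560 to 100927988, plus strand) read 95.6 and 66.7 in AVB animals #2 and #8, against 80.4, 50.3, 41.0 and 49.6 in intact animals #11 to #14. Intact animal #11 lay above AVB animal #8, so that the groups overlapped, with a log2 difference of 0.58 (SE 0.31) and a fold of 1.49. Probe set MmugDNA.6382.1.S1_at read 45.9 and 33.8 in AVB hearts, against 28.9, 24.1, 19.1 and 33.1 in intact hearts, a log2 difference of 0.61 (SE 0.33) and a fold of 1.53. There the groups did not overlap, but animal #8 was only 1.02 times the brightest intact heart. The annotation gives an alignment of 83.8% for this probe set and 93.2% for the brighter one. In both probe sets animal #2 was the farther one, at 1.78 times the intact mean, while for TNFRSF12A animal #8 was.

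The NF-κB subunits gave no common shift. NFKB1, the gene of the p105 precursor and of p50, has 3 probe sets, with log2 differences of 0.07, 0.01 and -0.22. The brightest, MmuSTS.3011.1.S1_at (chromosome 5, 95596079 to 95596388, plus strand), read 124 and 236 in AVB animals #2 and #8, against 153, 168, 171 and 161 in intact animals #11 to #14. The AVB hearts were the lowest and the highest of the 6, and the intact hearts differed among themselves by a coefficient of variation of only 4.91%. A mean of the 2 AVB hearts hides this, and without animal #2 or without animal #8 the log2 difference was 0.53 or -0.39. Of the other 2 probe sets, MmugDNA.25322.1.S1_at placed the AVB animals in the same order, at 41.9 for #2 and 55.1 for #8 against 45.2 to 51.1 in intact hearts. MmugDNA.43540.1.S1_at gave 22.5 and 24.2 in AVB hearts and 22.2 to 32.8 in intact hearts.

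RELA, the subunit of the classical dimer that activates transcription, had 1 probe set by the naming rule (MmugDNA.28126.1.S1_at), Present on 1 of 2 AVB arrays and 2 of 4 intact arrays. It read 62.3 and 43.7 in AVB hearts, against 48.3, 47.9, 45.1 and 47.7 in intact hearts, with animal #2 the highest and animal #8 the lowest of the 6. The log2 difference was 0.14 (SE 0.24). The annotation gives its alignment to the genome only 59.6%, and its symbol there is that of another gene, EMR2. A second probe set that names RELA in its description but not by the rule, MmuSTS.3377.1.S1_at, was looked up after values had been seen. It was Present on all arrays, at 249 and 275 in AVB hearts and 223 to 295 in intact hearts, a log2 difference of 0.04 (SE 0.19). The annotation gives this second probe set the symbol EMR2 too, at an alignment of 100%. Neither probe set separated the groups.

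NFKB2, whose product is processed in the alternative route, was Absent on all 6 arrays in each of its 3 probe sets, with signals between 0.871 and 18.7, and no fold is given for it.

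NFKBIA, the gene of IκBα, which holds NF-κB dimers in the cytoplasm and is induced by them, was lower in AVB hearts in 1 of its 2 probe sets. Probe set MmuSTS.356.1.S1_s_at (chromosome 7, 98360787 to 98361305, minus strand) read 462 and 467 in AVB hearts, against 590.1, 575, 662 and 676 in intact hearts. The AVB hearts lay close together and below every intact heart, with 464 ± 3.86 in AVB hearts (SD, n = 2) and 626 ± 50.7 in intact hearts (SD, n = 4). The log2 difference was -0.43 (SE 0.15), a fold of 0.744. The other probe set, MmugDNA.23424.1.S1_at, did not share the separation. It read 239 and 328 in AVB animals #2 and #8, against 294, 307, 357 and 316 in intact animals #11 to #14, so that animal #2 was below and animal #8 inside the intact range, with a log2 difference of -0.18 (SE 0.19). The annotation gives 99.5% for the alignment of this second probe set and 90.4% for that of the first.

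The 14 probe sets were set beside the array as a whole. Apart from TNFRSF12A, their log2 differences ran from -0.43 (NFKBIA) to 0.61 (BIRC3). Their median log2 difference was 0.055, and 0.039 without TNFRSF12A, against -0.0028 over all probe sets in the fit. There were 9 differences above 0 and 5 below, and 12 of the 14 lay within 1.5-fold, as did 84.0% of all probe sets. Both AVB hearts lay above all intact hearts in 2 of the 14 (TNFRSF12A and 1 of BIRC3), where 8.62% of all probe sets did so, and below them in 1 (of NFKBIA), where 9.46% did. Since the genes were chosen with this contrast known, nothing is read from these counts. The median coefficient of variation among intact hearts was 13.2% for the 14 and 20.4% for all. Over the whole array the limma fit called 1 probe set higher (0.00443%) and 4 lower (0.0177%) in AVB hearts at an adjusted p under 0.05. The fit was 2-sided, with Benjamini-Hochberg adjustment over all probe sets in it. None of these calls was of the 10 genes, which is no test of them, since they were chosen with this contrast known.

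**Figure D2:**
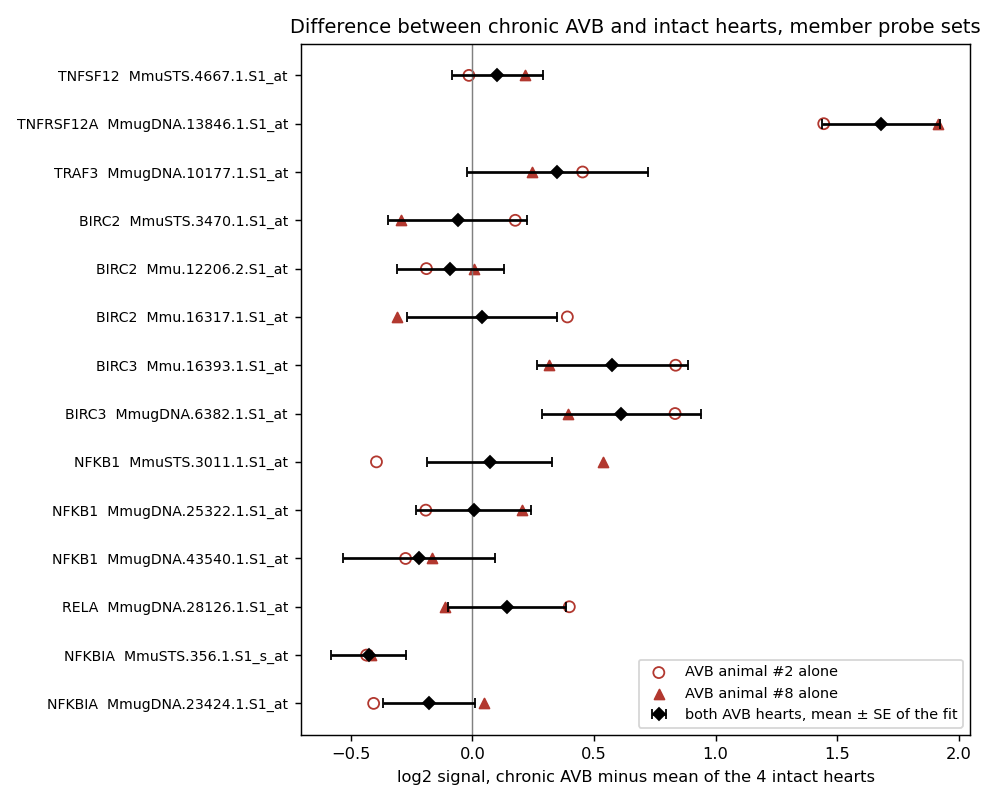
Difference of log2 signals between chronic AVB hearts and the mean of the 4 intact hearts for the 14 probe sets in the fit. Diamonds with bars are the mean of both AVB hearts ± SE of the fit, open circles animal #2 alone and triangles animal #8 alone. TNFRSF12A (1.68) lies far to the right of all others (-0.43 to 0.61), and in NFKB1 probe set MmuSTS.3011.1.S1_at the AVB animals lie on opposite sides of 0.

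The genes around the 10 were counted in 6 lists of 99 genes, taking each gene's brightest probe set. Of these, 70 entered the fit. In the limma fit 0 were higher and 0 lower at an adjusted p under 0.05, with a lowest adjusted p of 0.352, while 6 were higher and 2 lower at an unadjusted p under 0.05. Over all probe sets the unadjusted shares were 3.62% higher and 4.6% lower. The median log2 difference of the 70 was -0.034. With 2 arrays against 4, simulated 2-fold changes were recovered in 0%, 4-fold changes in 59% and 8-fold changes in 85% of cases by this fit.

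In the list of other ligands and receptors of the superfamily, which also holds CD163, 12 of 24 genes entered the fit, 6 with a difference above 0 and 6 below. CD163, a macrophage scavenger receptor that also binds TWEAK, read 99.7 and 174 in AVB hearts, against 83.7, 62.8, 76.5 and 46.1 in intact hearts, a fold of 2.01 (adjusted p = 0.469, limma). TNFSF13B, the gene of the cytokine BAFF, had a fold of 1.60, the death receptor gene TNFRSF21 1.35, and FAS 1.26. For CD163, TNFSF13B and TNFRSF21 both AVB hearts lay above all intact hearts, and for FAS they did not.

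CD163 is at the same time a marker of macrophages, and the other macrophage markers mostly lay on the same side of 0. All 9 macrophage markers, CD163 among them, entered the fit, with 8 differences above 0 and a median of 0.57 on the log2 scale. Their summed signals were 749 and 1405 in AVB hearts against 570 to 842 in intact hearts. No marker of the list passed the test, and the median was 0.13 for animal #2 and 0.85 for animal #8. The differences closest to 0 were 0.03 and -0.02. The summed signals of the groups overlapped. Cardiomyocyte markers had a median of 0.21, fibroblast markers 0.09, endothelial markers -0.01, markers of smooth muscle and pericytes 0.26, and those of blood 0.79. The T and B cell list had a median of 0.26 over the 2 of 6 markers in the fit. These 2 markers went opposite ways (-0.43 and 0.96). The higher one rested on animal #8 (154, against 53.4 in animal #2 and 40.6 to 56.3 in intact hearts). The adipocyte list had a median of -0.16 over 3 of 4 markers. The single neutrophil marker in the fit, of 4, had a difference of 1.55 (SE 1.33). It was Present on only 2 arrays, at 17.7 and 6.77 in AVB hearts and 0.978 to 20.4 in intact hearts. The part of these shifts in the results above was not tested.

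The other adaptors and ubiquitin regulators had 10 of 16 differences below 0, a median of -0.084 and 0 calls. TRAF5, a relative of TRAF3, read 66.1 and 51.1 in AVB hearts, against 65.1, 54.0, 87.9 and 150.1 in intact hearts, a fold of 0.704 that overlapped. Folds were 0.764 for TRAF4, 0.879 for TRAF7 and 0.814 for XIAP, a caspase inhibitor related to the cIAPs. Of these only XIAP had both AVB hearts below all intact hearts (147 and 148 in AVB hearts, 153 to 200.02 in intact hearts). The annotation gives the alignment of the XIAP probe set only 55.15%.

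Of the 16 kinases in the fit, 8 lay above 0 and 8 below, and in 6 of them both AVB hearts were below all intact hearts (9.46% of all probe sets), in 0 above (8.62%). The one farthest down was MAP3K14, the gene of NIK, which was picked out after its values had been seen because it is the kinase that the TRAF and cIAP complex controls. Its probe set read 24.7 and 19.9 in AVB hearts, against 28.4, 31.2, 58.3 and 49.7 in intact hearts. It was Absent in both AVB hearts and Present in 3 of 4 intact hearts, so the AVB level is uncertain. The signals as read gave a fold of 0.554 (SE 0.36 on the log2 scale, adjusted p = 0.592, limma). AKT1 had a fold of 0.807, CHUK, the IκB kinase subunit α that both routes use, 0.827, and TAB2, an adaptor of the kinase TAK1, 0.857. TAB3, another TAK1 adaptor, had 1.25. For the CHUK probe set the annotation gives an alignment of only 51%.

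Of the other Rel and IκB genes 6 of 9 entered the fit. NFKBIB, the gene of IκBβ, had a fold of 1.48 at signals of 19.2 and 20.2 in AVB hearts and 8.00 to 18.5 in intact hearts. NFKBIZ, a nuclear IκB protein, read 86.4 and 106 in AVB hearts, against 70.8, 59.3, 76.9 and 76.5 in intact hearts, a fold of 1.36 (adjusted p = 0.642, limma). Both ran opposite to NFKBIA, but neither passed the test. REL (0.820) and COMMD1 (0.882), which limits NF-κB on chromatin, overlapped between the groups.

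Genes known to respond to NF-κB showed no common direction. Of 12 in the fit, 4 lay above 0 and 8 below, with a median of -0.17. IER3, an early response gene, read 286 and 166 in AVB hearts, against 86.3, 114, 119 and 81.7 in intact hearts, a fold of 2.20 (adjusted p = 0.352, limma). CCL2, the chemokine MCP-1 that draws monocytes, read 102 and 113 in AVB hearts, against 71.1, 66.4, 77.4 and 53.7 in intact hearts, a fold of 1.61 (adjusted p = 0.477, limma). Both genes had no overlap between groups. VCAM1, a leukocyte adhesion molecule of the endothelium, lay on the other side at 32.4 and 42.2 in AVB hearts and 48.3 to 55.1 in intact hearts, a fold of 0.722. PLAU, the protease urokinase, had a fold of 1.36 that rested on animal #8 (121, against 65.8 in animal #2).

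In skeletal muscle of mice TWEAK lowers oxidative metabolism and drives protein breakdown, and 8 genes studied there all entered the fit, 4 above 0 and 4 below. SQSTM1, the autophagy receptor p62, read 2663 and 2754 in AVB hearts, against 2060, 2072, 1903 and 1363 in intact hearts, a fold of 1.48 (adjusted p = 0.499, limma). HK2, a hexokinase, had a fold of 1.54, with 135 and 183 in AVB hearts and 81.2 to 131 in intact hearts. PPARGC1A, the coactivator of mitochondrial genes, read 437 and 395 in AVB hearts, against 566, 420, 633 and 1037 in intact hearts, a fold of 0.661 that overlapped through animal #12. SLC2A4, the insulin-regulated glucose transporter, had a fold of 0.702, with 78.4 and 66.3 in AVB hearts and 86.8 to 119 in intact hearts.

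**Figure D3:**
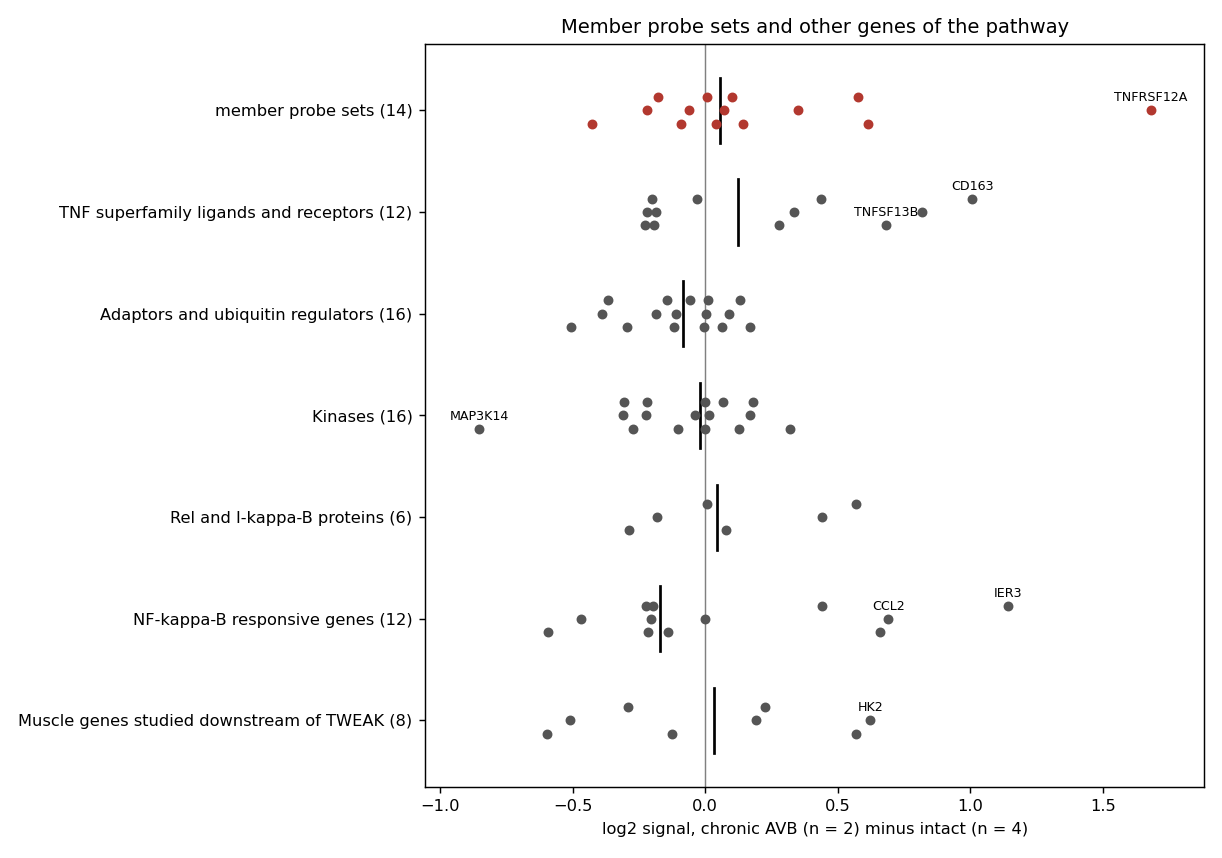
Difference of log2 signals, chronic AVB (n = 2) minus intact (n = 4), for the 14 probe sets of the 10 genes (red) and for the brightest probe set of each other pathway gene in the fit (grey), by list, with the number of points in parentheses and black bars at the median. TNFRSF12A (1.68) is the farthest to the right, followed by IER3 (1.14), MAP3K14 (-0.85) is the farthest to the left, and the medians lie between -0.17 and 0.12.

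The genes whose signals followed TNFRSF12A most closely were sought over 9778 genes with a probe set Present on all 6 arrays, by Pearson's r of log2 signals over the 6 arrays. With 6 arrays that fall into 2 groups such an r mostly ranks the gap between the groups, and 38 genes reached 0.95. The 5 named here were FOXP1, a transcription factor (r = 0.993), PACSIN2, a membrane-shaping protein (0.990), ITGB1BP2, the muscle integrin partner melusin (0.986), LOC129607 (0.984), and PPM1A, a phosphatase (0.982). Melusin read 1646 and 1863 in AVB hearts, against 1435, 1354, 1281 and 1303 in intact hearts, and FOXP1 read 625 and 675 in AVB hearts, against 494, 505, 412 and 443 in intact hearts. All 5 genes had smaller folds than TNFRSF12A, between 1.27 (PACSIN2) and 1.89 (LOC129607). In each of them animal #8 was the highest heart. Of the other genes of the axis, the brightest probe sets gave r of 0.70 for BIRC3, 0.47 for TNFSF12, 0.35 for TRAF3, 0.24 for NFKB1, 0.07 for BIRC2 and -0.96 for NFKBIA.

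**Figure D4:**
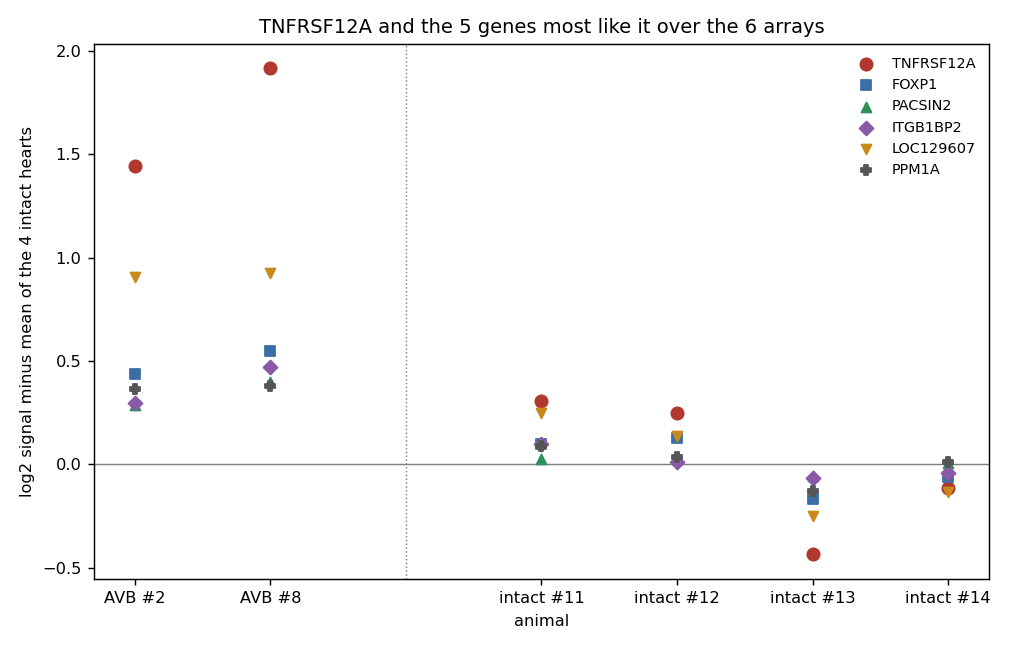
Log2 signal in each animal minus the mean of the 4 intact hearts, for TNFRSF12A (red circles) and the 5 genes most like it. AVB hearts are on the left of the dotted line. The genes share the order of the animals with TNFRSF12A closely, at a smaller size of difference.

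The order of the animals was another for TNFSF12, whose closest genes were H6PD, an enzyme of the endoplasmic reticulum (r = 0.988), MN1, a transcriptional coregulator (0.985), and DCN, the matrix proteoglycan decorin and a fibroblast marker (0.985). DCN read 4142 and 5582 in AVB hearts, against 4381, 4488, 4640 and 3551 in intact hearts. As for TNFSF12, animal #8 was the highest and intact animal #14 the lowest in each of the 3, and the groups overlapped in all of them.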

How the data were processed

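RNA of 6 left ventricles (100 ng from 50 mg of tissue or more) was amplified from its 3′ end and hybridized to Affymetrix Rhesus Macaque Genome Arrays, 1 for each animal. The authors computed MAS5 signals (intensity on a linear scale, smallest value 1) and gathered them in GeneSpring GX. The deposited workbook also holds detection calls, detection p-values (not adjusted) and normalized values on a log2 scale, which are the log2 signal less the array's median and the probe set's intact median. A second deposited table repeats the intensity values. The workbook's 6 columns of used probe pairs were not used. The probes follow rhesus sequence, and how far cynomolgus differences lower a signal was not tested.

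Each array was scaled to a common trimmed mean (2% off each end) and log2 was taken. After 158 control probe sets were left out, 22577 of 52706 probe sets were Present on at least 2 of 6 arrays and were fitted with limma 3.58.1 in R 4.3.3 (lmFit, eBayes with trend), 2-sided, with Benjamini-Hochberg adjustment and a threshold of 0.05. Precision is limited by how few arrays there are. Of all probe sets, 40302 were named by the design and 2766 by symbol, 493 named several genes and 9145 were unnamed here. Gene order came from the RefSeq table of Macaca fascicularis, of another build, without its coordinates. On simulated data with 200 changed probe sets, 0, 5 and 9 unchanged ones were called at 2-, 4- and 8-fold changes, and 0 with no change. Python 3.11.15 with pandas 2.3.3, scipy 1.17.1 and matplotlib 3.10.9 served for tables, exact permutation tests over the 15 splits of the arrays, and plots.

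The 10 genes, the gene lists and the tests were chosen with earlier results of these data known. The text names every probe set of the 10 genes, from each pathway list the genes past the threshold and up to 4 with the largest difference that were Present throughout the higher group, and the 5 genes most like TNFRSF12A and 3 most like TNFSF12. Some genes that this rule selects, and 1 further pathway list, are not reported here. No Y-linked or X-inactivation gene is named. For MAP3K14, raising any AVB reading to the lowest Present signal of its array changed nothing, because both readings were already above it. That lowest signal is taken over all probe sets and was 3.53 on the lower AVB array. The step could therefore hardly change a reading and does not make the fold of MAP3K14 more certain. Alternatives were quantile, 75th percentile and median scaling, an offset of 32, a floor of 100, the log2 columns as the authors normalized them, other filters and variance models, annotation symbols, a ratio of arithmetic means, and leaving out each animal.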

Additional observations from a re-analysis of the deposited data

How the results depend on the processing

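TNFRSF12A stayed higher in AVB hearts under every scaling, offset, floor and summary tried, with log2 differences of 1.62 to 1.70, and of 1.44 to 1.92 when 1 animal was left out. TNFSF12 gave 0.081 to 0.13, and -0.015 to 0.22 when 1 animal was left out, below 0 only without animal #8. The median of the 14 probe sets was 0 with the floor of 100, which ties dim probe sets, and 0.038 to 0.13 when 1 animal was left out. The other pathway genes had 0 calls under each of the 18 alternatives. Over all probe sets the 5 calls became 0 with quantile normalization, with the authors' normalized columns, without a variance trend and with array weights, and 8 (4 higher, 4 lower) with the offset of 32. Leaving out 1 animal gave 0 to 4 calls, with 0 for each animal but #8. With the floor of 100 the split was 7 higher and 0 lower, against 1 higher and 4 lower, and with robust eBayes 2 higher and 4 lower. The cause was not tested. Of 144 values of the other 12 probe sets of the axis, 132 moved by less than the spread between replicates. Leaving out an intact heart cannot move a value by more than that spread, so this count says little of how steady the values are. The 12 that moved did so when an AVB heart was left out (probe sets of BIRC2, NFKB1, RELA and NFKBIA) or, for BIRC3, with the floor of 100. BIRC3 stayed above 0 whichever animal was left out (0.32 to 0.84 and 0.39 to 0.83), and NFKBIA probe set MmuSTS.356.1.S1_s_at below it (-0.47 to -0.39), while the second NFKBIA probe set spanned -0.41 to 0.05. Both BIRC3 probe sets gave 0 with the floor of 100, which all their signals lay under, and 0.38 and 0.30 with the offset of 32. The dim signals of TRAF2 and NFKB2 limit what can be said of them. No paired analysis was possible because the groups share no animal numbers.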
